A study of Homo sapiens with 12 samples.

Results

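Guanine-rich DNA and RNA can fold into G-quadruplexes, in which stacked planes of paired guanines hold 4 strands or strand segments together. A folded quadruplex can stop a replication fork, and a group of helicases opens such structures with energy from ATP. Among human proteins known for this are helicases of the RecQ family, helicases with an iron-sulfur cluster, PIF1 and the DEAH-box helicase DHX36. Most of them act in DNA replication, recombination repair or telomere upkeep, and inherited loss of several causes syndromes of genome instability.

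Transcripts of 10 helicase genes from these groups were followed: BLM, WRN, RECQL, RECQL4 and RECQL5 of the RecQ family, BRIP1, RTEL1 and DDX11 of the iron-sulfur group, PIF1, and DHX36. They were taken by symbol from 58083 genes in each table, 1 row per symbol. They were listed for what they do, but with earlier results of these data known. Whether and how well each protein opens quadruplexes was not measured here.

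The cells were HEK 293T, an established line derived from human embryonic kidney and transformed to express SV40 large T antigen. The RNA groups were cells treated with PDP at 1 µM, collected after 3 h, 24 h or 72 h, and cells given DMSO for 3 h, with 2 samples each. The compound PDP is known here by its code name. The other 2 groups were a small-molecule pull-down from annealed genomic DNA of the line and its input, again with 2 samples each.

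The RNA tables give 1 value per gene and condition in FPKM (fragments per length of transcript, scaled to the mapped fragments), pooled over the samples of a condition. No sample can therefore be seen on its own, no SD can be given, and depth per sample is unknown. The control of the 24 h and 72 h tables carried the values of the DMSO control times a constant, 1.04 and 0.968 (SD of the log2 ratio 0.000842 and 0.000854). A change at 24 h or 72 h thus includes any change with time in culture, and the effects of PDP and of time cannot be told apart. All 3 comparisons share this control. "Called" means a q-value under 0.05 in the authors' deposited table, and the standard error (SE) of a log2 change is the one implied by the statistic there. The titles number the 2 samples of each group as bio1 and bio2, the only label that bears on whether they are separate cultures. Of 7 genes known to be active in this line, 6 measured over 1 FPKM in every condition. The exception was PAX2, with 0.896 FPKM in DMSO. The 8 markers of blood, liver and fibroblasts that were checked stayed under 1 FPKM.

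The sequences around the starts of BRIP1, BLM and RTEL1 are shown on these grounds. BRIP1 and BLM are the helicase genes that were called, though the call of BRIP1 depends on how p was made. BRIP1 and RTEL1 carry the G-rich pattern from which quadruplexes are predicted. The pattern was 4 runs of at least 3 guanines (GGG) separated by spacers of 1 to 7 bases (N), searched on both strands. Each window holds 250 bases before the RefSeq start (GRCh38.p14) and 50 from it on, 5′ to 3′ on the strand of the gene, and capitals mark the pattern.
BRIP1, chr17:61863479-61863778, minus strand: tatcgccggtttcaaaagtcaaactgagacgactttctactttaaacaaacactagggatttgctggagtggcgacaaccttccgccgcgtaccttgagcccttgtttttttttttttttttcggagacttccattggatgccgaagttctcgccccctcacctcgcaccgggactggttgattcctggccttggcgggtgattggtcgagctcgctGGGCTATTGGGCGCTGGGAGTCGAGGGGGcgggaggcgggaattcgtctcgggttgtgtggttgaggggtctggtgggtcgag
RTEL1, chr20:63657560-63657859, plus strand: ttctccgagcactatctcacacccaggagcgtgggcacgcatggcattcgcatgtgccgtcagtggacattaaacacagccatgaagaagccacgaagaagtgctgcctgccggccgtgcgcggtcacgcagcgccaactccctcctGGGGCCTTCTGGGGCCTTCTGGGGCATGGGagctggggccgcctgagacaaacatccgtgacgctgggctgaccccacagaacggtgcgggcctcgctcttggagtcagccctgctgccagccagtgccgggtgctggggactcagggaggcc
BLM, chr15:90717096-90717395, plus strand: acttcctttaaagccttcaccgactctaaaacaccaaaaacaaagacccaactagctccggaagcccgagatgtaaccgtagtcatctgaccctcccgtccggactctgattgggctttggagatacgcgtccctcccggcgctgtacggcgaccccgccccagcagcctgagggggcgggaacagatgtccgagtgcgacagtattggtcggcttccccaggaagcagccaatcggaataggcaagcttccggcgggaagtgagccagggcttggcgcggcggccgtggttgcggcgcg
In BRIP1 the match lay on the sense strand from 33 to 5 bases before the start, and in RTEL1 from 103 to 74 bases before it. The BLM window held no match. Windows were found for 8 of the 10 helicases, and those of WRN and RECQL4 were not used here. RTEL1 and DDX11 have 2 windows each, which makes 10 windows, and the BRIP1 window and 1 of RTEL1 were the 2 with a match. Of all 35116 RefSeq windows, 25.0% held the pattern, so a match in 2 of 10 is close to the background. With spacers of up to 12 bases, the background was 37.8%, and RECQL and the other RTEL1 window matched as well. The windows had a GC content of 54.7% to 66.3%, and the median over all windows was 58.7%. A match describes letters and does not show a folded structure.

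In cells given DMSO all 10 helicase genes were expressed, over a 7.03-fold range. On the scale of the 3 h table, DDX11, which acts in sister chromatid cohesion, was highest in the DMSO control at 65.6 FPKM. DHX36, which opens quadruplexes in RNA and DNA, followed at 44.8 FPKM, and RECQL4, which takes part in starting replication, at 30.6 FPKM. RECQL measured 25.8 FPKM and BLM 23.6 FPKM. Below them lay RECQL5 at 17.4, PIF1 at 14.5, RTEL1 at 12.6, BRIP1 at 10.5 and WRN at 9.33 FPKM. FPKM is a level per transcript length, so these genes can be set side by side, but neighbours in this order could not be told apart by a spread between samples.

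After 72 h of PDP the range was 13.1-fold, between 85.5 FPKM for DDX11 and 6.53 FPKM for BRIP1 on the same scale. DDX11, DHX36 and RECQL4 held the ranks 1, 2 and 3 in every condition. BLM had rank 8 with PDP at 72 h and rank 5 in DMSO, and WRN had rank 6 with PDP at 72 h and rank 10 in DMSO. The summed level of all 10 moved little, with 255 FPKM in DMSO and 256, 248 and 255 FPKM with PDP at 3 h, 24 h and 72 h. That sum rests most on the highest genes, such as DDX11. The median level of the 10 was 20.5 FPKM in DMSO and 21.4, 17.35 and 14.3 FPKM with PDP at these times.

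**Figure D1:**
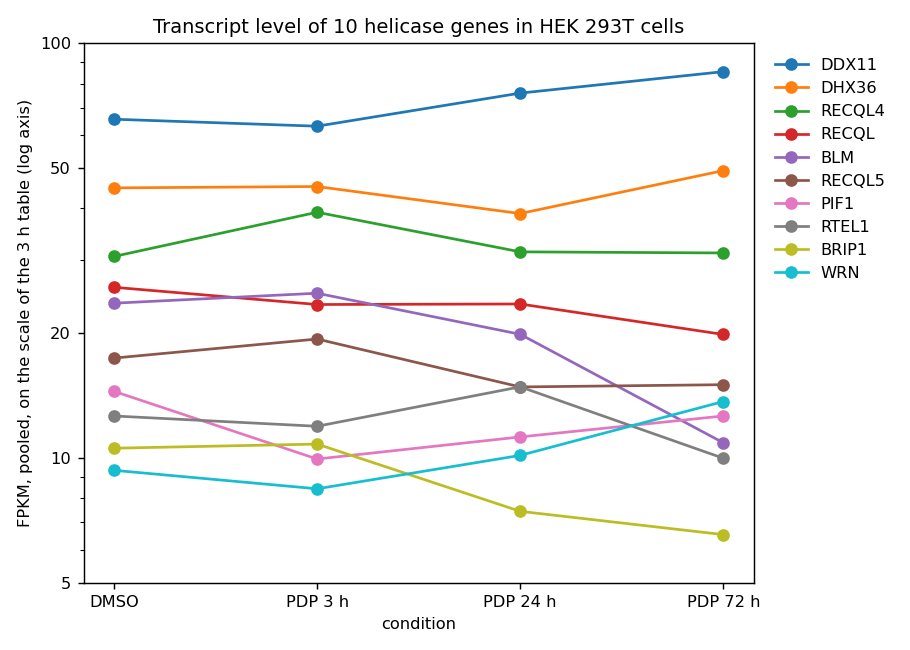
Pooled FPKM (log axis) of the 10 helicase genes in DMSO and with PDP at 3 h, 24 h and 72 h, all on the scale of the 3 h table; each point is 1 pooled value with no error. BLM and BRIP1 end at 10.9 and 6.53 FPKM, against 23.6 and 10.5 FPKM in DMSO, while DDX11, DHX36 and RECQL4 stay on top.

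At 3 h of PDP no helicase gene was called. All 10 were tested, and the background of calls in the authors' deposited table was 0.115% of 14751 genes, 0.108% higher and 0.00678% lower. None had an unadjusted p under 0.05, against 1.91% of all tested genes, and none was called when p was taken from the deposited statistic by a normal approximation (background 0.0542%). The median log2 change of the 10 was -0.02, beside -0.0026 for all tested genes, with 5 above and 5 below 0. PIF1, a helicase of nucleus and mitochondria, had the largest difference, with 9.93 FPKM with PDP and 14.5 FPKM in DMSO (log2 change -0.54, SE 0.46, q = 1.00 in the authors' deposited table, unadjusted p = 0.0858). RECQL4 had the largest in the other direction, with 39.1 FPKM with PDP against 30.6 FPKM (0.35, SE 0.37). The intervals are wide: for PIF1 the 95% interval from the implied SE ran between -1.43 and 0.35.

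BRIP1 was the helicase gene called at 24 h, and it was lower with PDP. Also known as FANCJ, it encodes an iron-sulfur helicase that binds BRCA1 and is mutated in Fanconi anaemia. Its locus in the RNA tables (ENSG00000136492.8) spans bases 61681266 to 61863521 of chromosome 17 in GRCh38. BRIP1 measured 10.8 FPKM with PDP at 3 h, against 10.5 FPKM in the control. It fell to 7.72 FPKM with PDP at 24 h, against 11.0 FPKM, and to 6.31 FPKM at 72 h, against 10.2 FPKM. The log2 changes were 0.03 (SE 0.24), -0.51 (SE 0.23) and -0.69 (SE 0.31), with q = 0.0092 at 24 h and q = 0.0139 at 72 h in the authors' deposited tables. PDP cells thus held 70.4% and 61.9% of the control level at the later times. The call depends on how p was made: from the deposited statistic by a normal approximation, adjusted over all tested genes, q was 0.266 at 24 h and 0.135 at 72 h.

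BLM fell at 72 h and was the helicase with the largest change. It encodes the helicase missing in Bloom syndrome, which unwinds recombination intermediates and quadruplexes. Its locus (ENSG00000197299.10) spans bases 90717327 to 90816165 of chromosome 15. BLM measured 25.0 FPKM with PDP at 3 h, against 23.6 FPKM in the control, and 20.6 FPKM with PDP at 24 h, against 24.5 FPKM. At 72 h it fell to 10.5 FPKM with PDP, against 22.8 FPKM, which is 46.1% of the control. The log2 changes were 0.08 (SE 0.27), -0.25 (SE 0.29, q = 0.384) and -1.12 (SE 0.31, q = 0.00039) in the authors' deposited tables. Here q from the deposited statistic was 0.0042, so BLM was called both ways. Whether its change differed between 24 h and 72 h was not tested. The RNA came from whole cultures, so a lower level per cell and fewer cells with the transcript cannot be told apart.

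These calls stood against a high background. Beside 1 of 10 helicases at 24 h, calls in the authors' deposited table covered 17.5% of 15385 tested genes (9.21% higher and 8.29% lower). At 72 h they covered 31.8% of 15423 genes (12.8% lower and 19.0% higher), beside 2 of 10 helicases, both lower and none higher. The share of helicases called was thus below that of all genes at both times. The share called lower, 1 of 10 and then 2 of 10, was above the 8.29% and 12.8% of all tested genes. With so few genes, these shares rest on 1 and 2 calls. Their median log2 change was -0.17 at 24 h and -0.21 at 72 h, beside -0.0036 and 0.13 for all tested genes. With q from the statistic, 0 of 10 helicases were called at 24 h (background 3.5%) and 1 of 10 at 72 h (13.8%). By size of change, BLM at 72 h exceeded 78.6% of tested genes and BRIP1 61.3%.

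**Figure D2:**
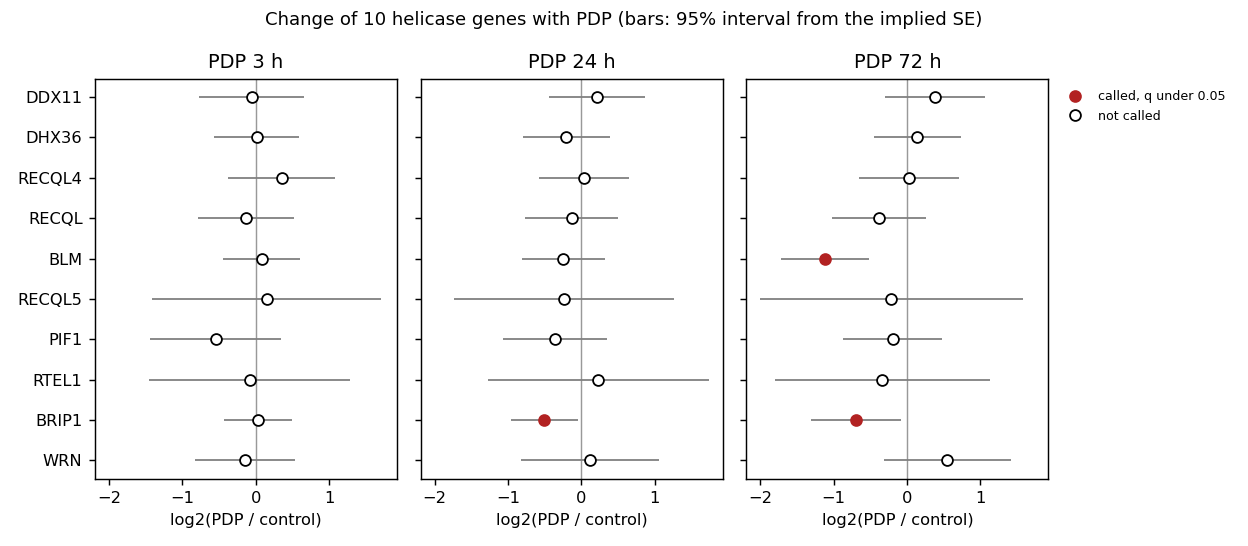
Log2 change of each helicase gene with PDP over the control at 3 h, 24 h and 72 h, ordered by level in DMSO, with bars for the 95% interval from the implied SE; filled points were called. BRIP1 at 24 h (-0.51) and at 72 h (-0.69) and BLM at 72 h (-1.12) are the filled points, and the bars of RECQL5 and RTEL1 are the widest.

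The other RecQ genes were not called at any time. WRN, a helicase with an exonuclease domain that is lost in the premature ageing disorder Werner syndrome, measured 8.42, 10.5 and 13.2 FPKM with PDP at 3 h, 24 h and 72 h, against 9.33, 9.69 and 9.03 FPKM in the control. Its log2 change of 0.55 at 72 h (SE 0.44, q = 0.167 in the authors' deposited table) was the highest of the 10 and opposite in sign to that of BLM, and its 95% interval of -0.32 to 1.42 includes 0. RECQL, which helps restart reversed replication forks, measured 23.4, 24.4 and 19.2 FPKM with PDP, against 25.8, 26.8 and 25.0 FPKM. Its log2 change at 72 h was -0.38 (95% interval -1.02 to 0.26). RECQL4 measured 39.1, 32.6 and 30.2 FPKM with PDP, against 30.6, 31.8 and 29.7 FPKM. Its later log2 changes were 0.04 and 0.03, with 95% intervals of -0.58 to 0.65 and -0.66 to 0.71. RECQL5, which binds RNA polymerase II, measured 19.4, 15.4 and 14.5 FPKM with PDP, against 17.4, 18.1 and 16.9 FPKM. Its implied SE was 0.80, 0.77 and 0.91, so a change of more than 1 in either direction lies within its interval at each time.

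RTEL1 and DDX11, the other iron-sulfur helicases, were not called either. RTEL1, which disassembles telomere loops, measured 11.9, 15.4 and 9.66 FPKM with PDP, against 12.6, 13.1 and 12.2 FPKM in the control, with implied SEs between 0.70 and 0.77. Its locus is shared with 6 other genes that reached 1 FPKM, among them the readthrough gene RTEL1-TNFRSF6B, which holds RTEL1 exons. That gene measured 2.55, 3.46 and 2.09 FPKM with PDP, against 3.37, 3.49 and 3.26 FPKM, so the split of reads between the pair is uncertain. In the same locus LIME1 was called lower at 72 h, with 0.613 FPKM with PDP against 3.18 FPKM, as was the noncoding gene RP4-583P15.15, with 0.947 against 4.07 FPKM. The implied SE of LIME1 (2.56) exceeded its log2 change of -2.38. ARFRP1, SLC2A4RG and ZGPAT, also in this locus, were not called.

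DDX11 measured 63.1, 78.7 and 82.8 FPKM with PDP, against 65.6, 68.1 and 63.5 FPKM. Its log2 change at 72 h was 0.38 (SE 0.35, q = 0.215 in the authors' deposited table, 95% interval -0.30 to 1.07). Its near-identical copy DDX12P, a pseudogene on the same chromosome, measured 5.81, 5.74 and 4.09 FPKM with PDP, against 5.73, 5.95 and 5.55 FPKM. DDX12P was called lower at 72 h (log2 change -0.44, SE 0.24, q = 0.0353), though its 95% interval includes 0. DDX11 was not called. The difference between the copies was not tested, and their reads cannot be assigned with certainty. The antisense gene DDX11-AS1, in the DDX11 locus, had 1.08 FPKM with PDP at 72 h against 0.346 FPKM and was not called. How strand entered the counting is not stated.

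PIF1 and DHX36 were not called at any time. PIF1 measured 9.93, 11.7 and 12.2 FPKM with PDP, against 14.5, 15.0 and 14.0 FPKM, below the control at each time. Its log2 changes were -0.54, -0.37 and -0.20, and the comparisons share their control, so the common sign is not independent evidence. DHX36 measured 45.1, 40.4 and 47.7 FPKM with PDP, against 44.8, 46.6 and 43.3 FPKM. Its 95% intervals, such as -0.45 to 0.73 at 72 h, leave room for changes of moderate size in either direction. In shared loci, PYROXD1 (with RECQL) and SAP30BP (with RECQL5) were not called. CTD-2517M22.17 (with RECQL4) was not called at 3 h and was not tested at 24 h and 72 h.

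BLM works in a complex with topoisomerase III alpha (TOP3A), RMI1 and RMI2, which takes recombined DNA molecules apart, and with the single-strand binding protein RPA. Of the 6 partner genes, 1 was called higher and 1 lower at 24 h, and 1 higher and 3 lower at 72 h, and none was called at 3 h. Over all tested genes, 17.5% were called at 24 h and 31.8% at 72 h. RMI1, which stabilises the complex, fell at 72 h to 4.27 FPKM with PDP, against 12.6 FPKM (log2 change -1.56, SE 0.26, q = 0.00039 in the authors' deposited table). It had been 12.9 FPKM against 13.5 FPKM at 24 h. TOP3A fell to 13.9 FPKM with PDP at 72 h, against 25.3 FPKM (-0.86, SE 0.43, q = 0.0165). RMI2, by contrast, rose to 29.6 FPKM with PDP at 24 h, against 16.5 FPKM (0.84, SE 0.32), and to 28.0 FPKM at 72 h, against 15.4 FPKM (0.86, SE 0.33).

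BLM, TOP3A and RMI1 were thus called lower at 72 h while RMI2 was called higher. RPA2, the middle subunit of RPA, fell to 68.5 FPKM with PDP at 24 h, against 101 FPKM, and to 69.5 FPKM at 72 h, against 94.6 FPKM. RPA1, its large subunit, measured 64.2 FPKM against 61.6 FPKM at 72 h and was not called. With q from the deposited statistic, RMI1 was called at 72 h (q = 2.8e-07), while TOP3A (0.202), RMI2 (0.0622) and RPA2 (0.136) were not. At 24 h none of the partners was called this way, RMI2 (0.138) and RPA2 (0.101) included. The median log2 change of the 6 at 72 h was -0.47, beside 0.13 for all tested genes.

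**Figure D3:**
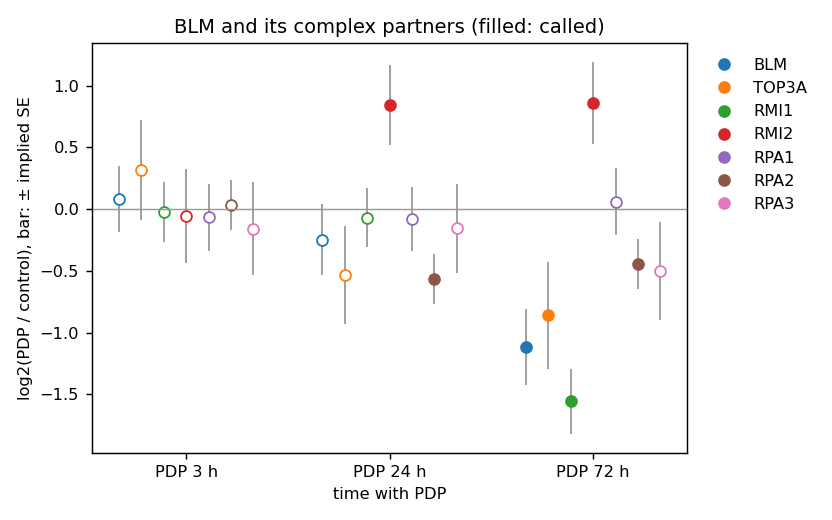
Log2 change of BLM and of 6 partner genes with PDP over the control at 3 h, 24 h and 72 h, with bars of 1 implied SE on either side; filled points were called. At 72 h BLM (-1.12), TOP3A (-0.86) and RMI1 (-1.56) lie below 0 and RMI2 (0.86) above.

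Partners of BRIP1 were mixed. In a list of 18 genes of BRCA1 and the Fanconi anaemia pathway, 16 were tested. The authors' deposited tables called 1 higher and none lower at 24 h, and 3 higher and 3 lower at 72 h, beside 17.5% and 31.8% of all tested genes called in either direction. BRCA2, which acts in homologous recombination, fell to 4.92 FPKM with PDP at 72 h, against 14.0 FPKM (log2 change -1.51, SE 0.77). PALB2, which links BRCA2 to BRCA1, fell to 4.59 FPKM, against 9.16 FPKM (-1.00, SE 0.41). FANCM, another helicase-related translocase, rose to 14.2 FPKM, against 7.80 FPKM (0.86, SE 0.37). FANCE, a subunit of the Fanconi core complex, rose to 13.4 FPKM at 24 h, against 8.67 FPKM. None of the 16 was called with q from the deposited statistic. BRCA1 itself, chosen after its values were seen, measured 15.4 FPKM with PDP at 72 h against 21.0 FPKM and was not called.

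Genes of the replicative helicase, the MCM and GINS subunits with CDC45 and MCM10, were lower with PDP wherever they were called, as BLM and BRIP1 were. Of 12, the authors' deposited tables called 5 lower at 24 h and 7 lower at 72 h, with none higher, and the medians were -0.39 and -0.47. Over all tested genes, 8.29% and 12.8% were called lower at these times. With q from the deposited statistic, 1 of the 12 was called at 24 h and 3 at 72 h, and MCM10 was not among them. GINS3 fell to 16.9 FPKM with PDP at 24 h, against 36.9 FPKM, and to 9.51 FPKM at 72 h, against 34.4 FPKM (log2 changes -1.13 and -1.85). MCM6 fell to 33.8 FPKM at 72 h, against 65.3 FPKM, GINS1 to 17.1 FPKM, against 31.6 FPKM, and MCM10 to 21.5 FPKM at 24 h, against 32.5 FPKM. The part of a changed share of replicating cells in the values of BLM and BRIP1 was not tested.

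Genes that guard the fork and the telomere, listed for their ties to DDX11, RTEL1 and WRN, went both ways. Of 13, 1 was called higher and 2 lower at 24 h, and 2 higher and 2 lower at 72 h. These counts are near the 17.5% and 31.8% called over all tested genes. With q from the deposited statistic, 1 was called at 24 h (TIPIN) and 2 at 72 h (TIPIN and OBFC1). At 24 h CLSPN (q = 0.346) and OBFC1 (q = 0.0999) lost their calls. At 72 h CTC1 (q = 0.479) and SLX4 (q = 0.291) lost theirs. TIPIN, of the fork protection complex, fell to 37.9 FPKM with PDP at 24 h, against 61.3 FPKM, and to 33.7 FPKM at 72 h, against 57.1 FPKM. Its partner in checkpoint signalling CLSPN fell to 16.0 FPKM at 24 h, against 30.6 FPKM. OBFC1 (STN1), a subunit of the telomere complex CST, rose to 6.57 FPKM at 24 h, against 3.55 FPKM, and to 7.75 FPKM at 72 h, against 3.31 FPKM. CTC1, of the same complex, rose to 33.7 FPKM at 72 h, against 12.3 FPKM, with an implied SE of 1.11 beside a log2 change of 1.46.

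Among helicases of further lists, every call was lower. Among 20 other DNA helicases and translocases, 1 was called lower at 24 h and 4 at 72 h, none higher, with medians of -0.22 and 0.06. The share called was below the 17.5% of all tested genes at 24 h and the 31.8% at 72 h. In the lower direction alone, 8.29% and 12.8% of all tested genes were called. The share called lower was below that at 24 h and above it at 72 h. With q from the deposited statistic, none was called at 24 h and 2 (C10orf2 and HELQ) at 72 h. The mitochondrial replicative helicase C10orf2 (TWNK) fell to 17.4 FPKM with PDP at 24 h, against 33.5 FPKM, and to 10.6 FPKM at 72 h, against 31.2 FPKM (log2 change -1.56, SE 0.37). HELQ, a repair helicase, fell to 2.66 FPKM at 72 h, against 6.54 FPKM. HFM1, a meiotic helicase, fell to 0.495 FPKM, against 1.98 FPKM, with an SE of 1.49 beside a log2 change of -2.00. Of 14 DEAH-box relatives of DHX36, 3 were called lower at 24 h (DHX37, DHX34 and DHX15) and none at 72 h, with medians of -0.37 and -0.08. The share called was above the 17.5% of all tested genes at 24 h (8.29% lower) and below the 31.8% at 72 h. By the deposited statistic, DHX37 alone kept a q under 0.05 at 24 h. DHX37, of ribosome assembly, fell to 18.1 FPKM at 24 h, against 32.5 FPKM.

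Quadruplex-binding proteins that are not helicases, and checkpoint genes, were set beside the helicases too. Of 22 such binding proteins, 21 were tested, with 3 called lower at 24 h, and 3 higher and 2 lower at 72 h. Both shares lie below the 17.5% and 31.8% of all tested genes. By q from the deposited statistic, none was called at 24 h and HNRNPU alone at 72 h, so CNBP and SUB1 lost their calls. HNRNPU rose to 847 FPKM with PDP at 72 h, against 415 FPKM (log2 change 1.03, SE 0.30). CNBP fell at 24 h (297 FPKM against 407 FPKM) and rose at 72 h (514 FPKM against 379 FPKM). SUB1 was called lower at both times, LIN28B higher and HNRNPA2B1 lower at 72 h. Of 15 tested genes of damage signalling, 1 was called higher and 2 lower at each of 24 h and 72 h, near the share of all tested genes at 24 h and below it at 72 h. When q came from the statistic, 1 was called at 24 h and 2 at 72 h, and ETAA1 and HUS1 lost their calls. H2AFX fell to 32.3 FPKM with PDP at 24 h, against 59.2 FPKM, and rose to 82.4 FPKM at 72 h, against 55.3 FPKM. ETAA1, which activates ATR, rose at 24 h (14.3 FPKM against 9.63 FPKM) and fell at 72 h (6.05 FPKM against 8.96 FPKM), and HUS1 fell at 24 h (13.9 FPKM against 21.0 FPKM).

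**Figure D4:**
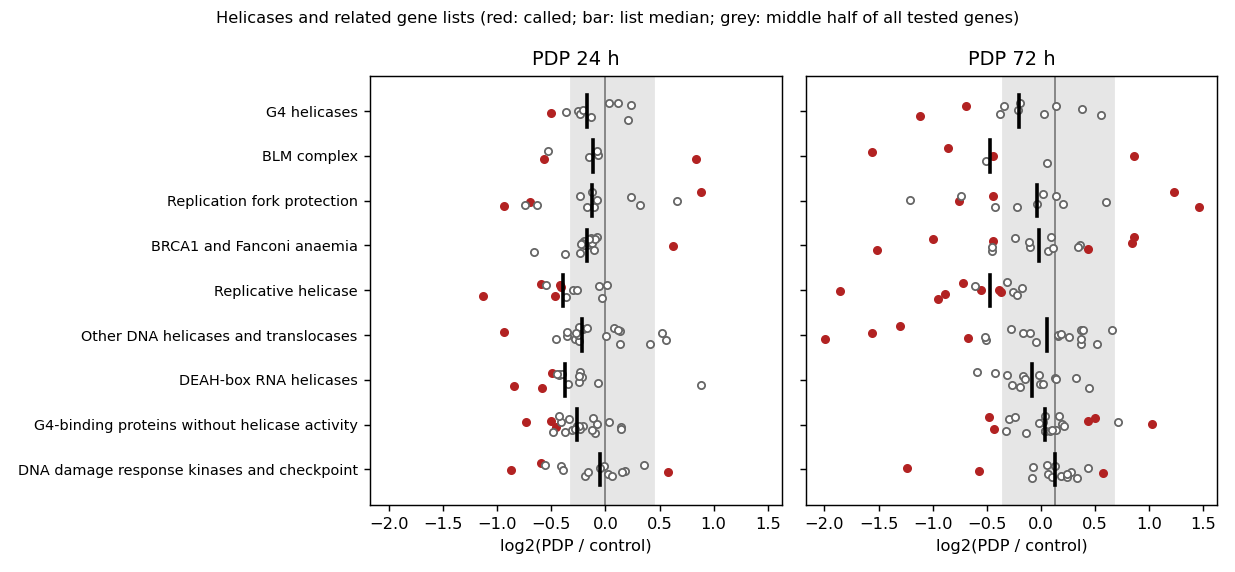
Log2 change of each tested gene in 9 lists at 24 h and 72 h of PDP; red points were called, black bars mark list medians, and the grey band and line give the interquartile range and median of all tested genes. The helicase medians are -0.17 and -0.21, and those of the replicative helicase list are -0.39 and -0.47.

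The 5 genes whose 3 changes lay closest to those of BLM, among 13505 expressed genes, were FKBP11, ZNF594, ZKSCAN2, GPATCH8 and COLEC12. Likeness was the Euclidean distance over the log2 changes at 3 h, 24 h and 72 h, between 0.0673 and 0.0987. Their 72 h changes lay between -1.05 and -1.18, beside -1.12 for BLM, and FKBP11 was not called. These 3 changes share a control.

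In the pull-down from annealed DNA, 5 of 10 helicase loci held a peak. The list has 51446 peaks found in both replicates, each with an averaged score from the authors whose unit is not stated. BLM and RTEL1 held 4 peaks each, and WRN, RECQL5 and BRIP1 held 2 each, which makes 14. No peak overlapped the loci of RECQL, RECQL4, DDX11, PIF1 and DHX36. Among 10482 loci of expressed genes, 55.7% held a peak, so the share of helicase loci is close to the background. With loci widened by 5 kb on each side, 7 of 10 helicase loci and 64.5% of the expressed loci held a peak. Peaks lay at 1.73 per 100 kb of helicase locus, and at 1.96 per 100 kb over all expressed loci.

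Locus length moves with this count. The 5 loci with peaks were between 81.2 and 182 kb long, and those without were between 6.56 and 84.0 kb. Among 2297 expressed loci of 80 to 200 kb, 85.5% held a peak, and 5 of 6 helicase loci of that length did. The DDX11 locus, at 84.0 kb, was the one without. Scores of the 14 peaks ran between 8.79 and 23.2 with a median of 12.5, against a median of 11.0 for all peaks. The highest lay inside RTEL1, at bases 63693357 to 63693759 of chromosome 20. The 4 BLM peaks, such as that at bases 90813208 to 90813610 of chromosome 15, scored between 10.3 and 12.9. The BRIP1 peaks, at bases 61774250 to 61774652 and 61827057 to 61827575 of chromosome 17, scored 12.8 and 9.88.

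No peak fell at the start of the 8 helicase genes with a promoter window. Between the RefSeq start and the centre of the nearest peak lay 1.69 kb for the first RTEL1 window, 8.30 kb for BLM, 10.9 kb for PIF1 and 36.2 kb for BRIP1, up to 138 kb for DHX36. The G-rich pattern of the BRIP1 window, shown above, thus lay far from any peak. Of the 14 peaks, 13 were centred inside the RefSeq span of the helicase gene itself, and the other lay elsewhere in the shared RTEL1 locus. BLM and BRIP1 both held peaks, but the peaks come from purified DNA and not from treated cells, and their part in the transcript changes was not tested.

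**Figure D5:**
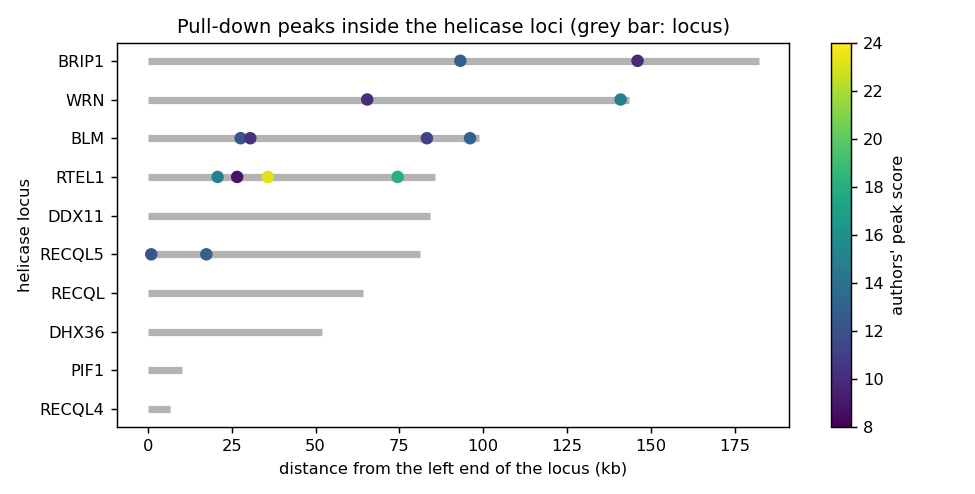
Pull-down peaks (points, coloured by the authors' score) along each helicase locus (grey bar), by distance from its left end in kb, with the longest locus on top. The loci without a peak are those of RECQL, RECQL4, PIF1, DHX36 and DDX11, and the highest score, 23.2, lies in the RTEL1 locus.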

How the data were processed

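RNA of HEK 293T cells was captured as poly(A) RNA and made into stranded libraries, per the labels' protocols. The submitters' processing notes name HISAT2 2.0.5, Cufflinks 2.2.1, Bowtie2 2.2.9, HOMER 4.9.1 and GRCh38.p7, with no roles. Values deposited by the authors are FPKM, 1 per condition from 2 replicates, and the deposited tables have Cuffdiff columns, per the file headers. Each p-value and q-value deposited by the authors is from their own test of the table; a Benjamini-Hochberg adjustment of p over the tested genes gave the same q. The score in the authors' deposited statistic column gave the SE, as log2 change over statistic, and intervals are 1.96 SE. Peaks carry a score that the authors averaged over replicates.

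Log2 changes were computed as PDP over control with no pseudocount. Members and lists were chosen with earlier results of these data known. From each list up to 3 called members per time were named by size of change; RPA1, BRCA1 and DDX12P were added after their values were seen. Some genes of the lists are not reported here by name. ATRIP, with 2 rows, was left out. Peak overlap needed 1 base. Promoter windows were those of RefSeq, and distances to peaks treat its primary chromosomes as those of the files. The steps that give log2 changes, SEs and calls were tested on simulated data in which p followed from the statistic. Peak, promoter and list steps were not tested in that way. Tools were Python 3.11.15, SciPy 1.17.1, pandas 2.3.3, NumPy 2.4.6 and, for plots, Matplotlib 3.10.9.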

Additional observations from a re-analysis of the deposited data

How the results depend on the processing

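The helicase count of 1 at 24 h became 0 with a log2 change of at least 1, and 0 with q from the deposited statistic, an alternative chosen after seeing the data. The count of 2 at 72 h became 1 (BLM) with q under 0.01, with a log2 change of at least 1, and with q from the statistic. Of 60 recomputed single changes, 2 turned sign when both conditions were scaled to equal FPKM sums: RECQL at 24 h became 0.035 and RECQL4 at 72 h became -0.076, neither called. That scaling adds 0.17 at 24 h and -0.10 at 72 h, and it moved the helicase median to 0.03 (3 h), -0.0013 (24 h) and -0.31 (72 h). With loci widened by 5 kb, 7 of 10 helicase loci held a peak, against 64.5% of expressed loci. No paired analysis was possible because the tables pool the replicates, and for the same reason no replicate could be left out. Depth per library is unknown.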
